A study of Mus musculus with 2 samples.

Results

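The CTCF peaks described here lie in the most gene-dense megabases of the mouse genome. CTCF is a DNA-binding protein of insulators and loop anchors, and its peaks were mapped by chromatin immunoprecipitation with sequencing (ChIP-seq). Chromosomes 1 to 19 were cut into fixed bins of 1 Mb, and a bin was called gene-dense when 40 or more protein-coding genes other than Olfr and Vmn genes start in it (mm10, GENCODE vM21). A peak belonged to a bin when its summit, the position of highest signal, fell there. The rule found 42 gene-dense bins among 2473 bins, on 13 chromosomes, with 2054 of 19350 counted genes. They held 3258 of the 50909 summits in the optimal list, the deposited list of peaks that passed the irreproducible discovery rate (IDR) threshold. The other bins of chromosomes 1 to 19 held 46533 summits. The rule counted genes only and used no value of the peaks.

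The tissue was liver of B6NCrl embryos at day 14.5, pulverised and pooled from several dissections, with males and females together and no allele or treatment named. The 2 ChIP libraries formed 1 group. The labels call them biological replicates but give both the same biosample, so their spread may be technical. A ChIP-seq peak does not measure expression, so the tissue could not be checked against its marker genes.

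CTCF reads a long DNA motif through its zinc fingers and can stop cohesin, the ring complex that extrudes chromatin loops. A pair of CTCF sites whose motifs point at each other often anchors a loop, and CTCF also binds next to many promoters. Gene-dense megabases of mammals hold short genes, many CpG islands and a high GC content. At this stage the liver is a blood-forming organ in which erythroid cells mature beside hepatocytes.

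The sequences below show what CTCF summits in gene-dense megabases hold. Each is 30 bases of GRCm38 (mm10) in RefSeq's copy, read 5′ to 3′ on the strand that carries the core CTCF motif, with the match of 14 bases in capitals. The first 5 belong to the 5 strongest peaks of gene-dense bins, each named by the nearest protein-coding start. The sixth is the match with no mismatch at the right end of a convergent pair around Gnl1. The next 2 face each other across the class I gene H2-D1. The last is the strongest of the 7 summits in the defensin bin, where the motif is matched with no mismatch. It lies at the right end of a 199 kb stretch with 9 beta-defensin starts. The coding start nearest to it is that of Fam90a1a. All matches were found with at most 2 mismatches on either strand within 50 bp of the summit.
Ndufa4l2, chr10:127513010-127513039, plus strand: cggctcggCCTCTAGAGGGCGCcggcaccc
Cirbp, chr10:80165138-80165167, minus strand: ggctatggCCACTAGACGTCGCcatcgtgg
Pik3r2, chr8:70769546-70769575, minus strand: tctcctgcTCACCAGGGGGCGCtcgtgcgc
Wrap53, chr11:69579482-69579511, plus strand: ctccctggCCTGCAGAGGGCGCataatttc
Stat3, chr11:100893615-100893644, plus strand: gccagtggCCAGCAGGTGGAGCaagtgata
Gnl1, chr17:35993815-35993844, minus strand: catcttgaCCAGCAGGTGGCACtgcggagt
H2-D1 left, chr17:35254868-35254897, plus strand: tatggtggCCAGCAGAGGGTGCtgggtccc
H2-D1 right, chr17:35274938-35274967, minus strand: gctcaaggCCGCCAGGGGGCAGcaggacac
Defensin bin, chr8:21955506-21955535, minus strand: tgatatggCCACTAGAGGGCGCgattgcct

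No test over samples could be made, since both libraries are of 1 group and 1 biosample, and peaks of 1 library are not independent replicates. A value is therefore given from the optimal list, with the mean ± SD (n = 2) of the same quantity over each replicate's 50909 strongest peaks. Intervals are Wilson 95% intervals and cover counting error only. Read depth is unknown for both libraries. Signal is the height that the peak caller gave each peak, in a unit that is not stated, and was compared only within a list.

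Most summits of gene-dense bins recurred in the other deposited lists. The optimal and conservative lists both derive from the peaks of these 2 libraries, so a high overlap follows in part from how they were made. A conservative-list summit lay within 100 bp of 2837 of 3258 summits, or 87.1% (85.9 to 88.2), against 86.4% (86.1 to 86.7) in other bins and 86.5% over all autosomes. Among the strongest peaks of both replicates were 77.4% of summits in gene-dense bins and 76.8% in other bins. The replicates went apart here. Replicate 1 held 87.9% (86.7 to 89.0) of the summits in gene-dense bins and 84.8% (84.5 to 85.1) in other bins, and replicate 2 held 83.0% (81.6 to 84.2) in gene-dense bins and 87.5% (87.1 to 87.7) in other bins. The members without a counterpart were weak. Median signal was 20.2 for those absent from the strongest peaks of 1 or both replicates and 119 for the rest. Replicate 1 placed 3567 of its strongest peaks in gene-dense bins and replicate 2 placed 3056, so the libraries differed in this count more than in the total over other bins, which was 46361 and 46622.

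CTCF summits were crowded in gene-dense megabases. They occurred at 78.0 per Mb of sequence outside assembly gaps, against 19.8 per Mb in the other bins, a ratio of 3.94. Replicate 1 gave 85.4 per Mb in gene-dense bins and 19.7 in other bins, and replicate 2 gave 73.1 in gene-dense bins and 19.8 in other bins. The ratio averaged 4.01 ± 0.454, so the difference was far larger than the spread between the libraries. Gene-dense bins made up 1.74% of the sequence and carried 6.54% of the autosomal summits. Per gene the order was the other way round, with 1.59 summits for each counted gene in gene-dense bins against 2.69 in other bins. The choice of bins by gene number favours a low value per gene, so this is a description only.

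Summit density climbed through every class of gene number. It was 2.19 per Mb in bins without a counted gene, 14.1 with 1 to 9 genes, 34.8 with 10 to 19, 47.5 with 20 to 29, 60.8 with 30 to 39 and 78.0 with 40 or more. Each replicate gave the same order. The limit of 40 genes marked no step. The 2 bins with 39 genes had 58 and 102 summits, and the 5 bins with exactly 40 genes ran from 7 to 80 with a median of 68.0. Over 2413 bins with sequence, gene number and summit density had a Spearman rho of 0.813, and within the 42 gene-dense bins it was 0.310. Bins share libraries and base composition, so these coefficients are descriptions only.

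**Figure D1:**
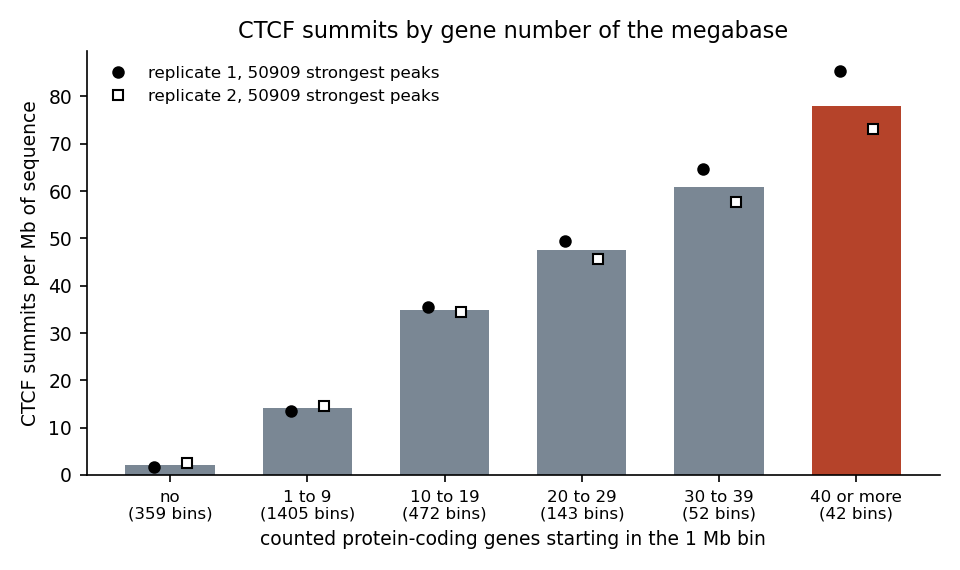
CTCF summits per Mb of ungapped sequence (vertical axis) in 1 Mb bins grouped by the number of counted protein-coding genes that start in them (horizontal axis); bars show the optimal list, and points show the 50909 strongest peaks of each replicate. Density is 2.19 per Mb without genes and 78.0 per Mb with 40 or more, where the replicates stand at 85.4 and 73.1.

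The difference in density was also seen outside promoter windows of 1 kb. Promoter windows, the 1 kb on either side of every annotated transcript start, covered 23.2% of the sequence in gene-dense bins and 5.98% in other bins. Outside these windows, summits occurred at 62.3 per Mb in gene-dense bins and 16.6 per Mb in other bins. The replicates averaged 62.8 ± 3.13 in gene-dense bins and 16.6 ± 0.823 in other bins. Inside promoter windows the densities were 130 per Mb in gene-dense bins and 69.3 per Mb in other bins, with replicate means of 134 ± 26.9 for gene-dense bins and 69.5 ± 11.6 for other bins. With windows of 5 kb, 76.2% of the summits in gene-dense bins lay inside them. The density outside windows of that size was not computed.

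GC content moved with summit density more closely than gene number did. Gene-dense bins were 48.0% GC and other bins 41.8%. Spearman's rho of GC with density was 0.886 over 2413 bins and 0.756 within the 42 gene-dense bins. At like GC content gene-dense bins still held more summits. Between 45% and 47.5% GC, 8 gene-dense bins had 75.9 summits per Mb and 294 other bins had 42.8. Between 47.5% and 50%, the densities were 80.6 in 20 gene-dense bins and 55.7 in 116 other bins. From 50% upward, 9 gene-dense bins had 105 per Mb and 30 other bins had 69.9. The ratio over bins of at least 45% GC was 1.78, against 3.94 over all bins, with 1.85 in replicate 1 and 1.73 in replicate 2.

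**Figure D2:**
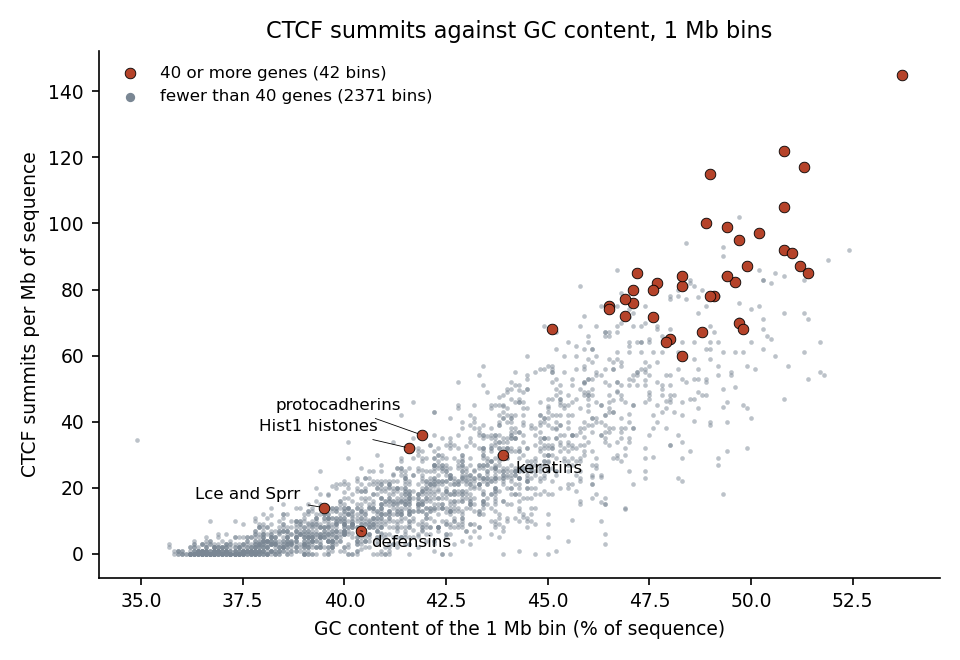
CTCF summits per Mb of the optimal list (vertical axis) against GC content (horizontal axis), where each point is a 1 Mb bin with sequence, red for the 42 bins of 40 or more genes and grey for the 2371 others. The 5 named gene-family bins sit under 45% GC and under 40 summits per Mb, while the other 37 gene-dense bins have 60 or more.

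The gene-dense bins fell into a large and a small set. Summits per Mb of a bin ran from 7 to 145 around a median of 80.0, against a median of 14.0 in other bins. All 37 bins at 45% GC or more had 60 or more summits per Mb, and the 5 bins under 45% GC had fewer than 40. Of the 42 autosomal bins with the highest density, 20 were gene-dense. All 13 chromosomes with gene-dense bins had more summits per Mb in them than in their other bins. The ratio ran from 1.92 on chromosome 13, whose only such bin holds histone genes, to 5.64 on chromosome 10. Chromosome 7 had 9 gene-dense bins with 717 summits and a ratio of 3.87.

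Ordered by summits per Mb, the first bin was chr10:80000001-81000000, with 145 in the optimal list, 155 in replicate 1 and 117 in replicate 2. It carries Stk11, a kinase upstream of AMPK, Gpx4, which detoxifies lipid peroxides, and Cirbp, a cold-inducible RNA-binding protein. In this bin 42 of 54 genes (77.8%) had a promoter summit. Next came chr7:19000001-20000000 with 122 summits, 126 in replicate 1 and 112 in replicate 2. It holds the apolipoprotein genes Apoe, Apoc1 and Apoc2 and the repair genes Ercc1 and Ercc2.
On chr8:70000001-71000000, home of Mau2, Upf1 and Jund, there were 117 summits, with 126 in replicate 1 and 101 in replicate 2. On chr11:69000001-70000000, where Trp53, Polr2a and Per1 lie, there were 115, with 122 and 109 in the replicates. The fifth, chr19:6000001-7000000, contains Men1, Sf1 and Esrra and had 92 summits over 874 kb of ungapped sequence, or 105 per Mb. Together these 5 bins were 51.1% GC, and 161 of their 267 genes (60.3%) had a promoter summit, a description of bins picked for many summits.

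The most genes, 68, start in chr7:45000001-46000000, which holds the ribosomal protein genes Rpl13a and Rpl18 and the apoptosis gene Bax. It had 92 summits, with 103 in replicate 1 and 86 in replicate 2. The Trp53 bin came next with 64 genes. The class III and class I part of the MHC, chr17:35000001-36000000, had 62 genes and 100 summits, 102 in replicate 1 and 96 in replicate 2. The neighbouring class II part, chr17:34000001-35000000, had 54 genes and 78 summits, 86 and 72 in the replicates.
The lipocalin bin chr2:25000001-26000000 had 62 genes and 70 summits, 80 and 66 in the replicates. On chr7:30000001-31000000, with the hepcidin genes Hamp and Hamp2, there were 60 genes and 67 summits, 75 and 71 in the replicates. On chr7:127000001-128000000, with Maz and Kat8, there were 56 genes and 82 summits, 102 and 79 in the replicates. On chr19:5000001-6000000, with Malat1, Neat1 and Rela, there were 54 genes and 99 summits, 106 and 96 in the replicates. Fewest among the 10 bins with most genes had the keratin bin of chromosome 11, with 57 genes and 30 summits, and the protocadherin bin of chromosome 18, with 55 genes and 36.

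The 5 gene-dense bins with fewest summits were poor in CTCF only beside the other gene-dense bins. Together they had 23.8 summits per Mb, against 19.8 in the bins that are not gene-dense. Only 1 of them lay below the median of 14.0 of those bins. Each of the 5 bins is a tandem array of related genes. The lowest, chr8:21000001-22000000, holds alpha- and beta-defensin genes, which encode antimicrobial peptides. It had 7 summits, with 6 in replicate 1 and 7 in replicate 2. The bin chr3:92000001-93000000 holds Lce and Sprr genes for the cornified envelope of skin and had 14 summits, with 10 and 17 in the replicates. The keratin and keratin-associated genes of chr11:99000001-100000000 had 30 summits, with 32 and 31 in the replicates. The Hist1 histone genes of chr13:23000001-24000000 had 32 summits, with 37 and 29 in the replicates. The clustered protocadherin genes of chr18:37000001-38000000, which encode adhesion proteins of neurons, had 36 summits, with 32 and 33 in the replicates.

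These 5 bins held 241 genes and 119 summits. They were 41.5% GC, against 48.9% in the other 37 gene-dense bins, and their genes had a median length of 1.69 kb, against 8.36 kb. A promoter summit was found for 35 genes, or 14.5%, against 50.2% in the other 37, a description only, since these bins were picked for few summits. Repeated sequence differed too. Words of 50 bases that occur more than once within the bin made up 2.12% to 54.8% of the 5 bins, with the defensin bin highest, and 0.725% to 31.2% of the other 37, with a median of 1.16%. The part of GC content, gene length or repeated sequence in the low counts was not tested. The bin at 31.2%, chr10:81000001-82000000, had 95 summits.

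The longest stretches without a summit in gene-dense bins ran through the same arrays, which were looked at after these values were seen. Between neighbouring summits on chromosome 8 lay 663 kb with the starts of 24 genes, most of them alpha-defensins. Chromosome 3 had 328 kb with 14 gene starts, mostly Sprr, and 301 kb with 18, mostly Lce. On chromosome 11 the gap of 280 kb held 26 gene starts, mostly Krtap, and on chromosome 18 the gap of 184 kb held 15, Pcdhb3 to Pcdhb17. Of 3216 intervals in gene-dense bins, 23 (0.715%) held 5 or more gene starts, against 95 of 44355 (0.214%) in other bins. The median interval between neighbouring summits was 6.70 kb, against 14.3 kb in other bins, and 12.1% of intervals held 2 or more gene starts, against 5.47%. The choice of bins by gene starts favours more starts per interval.

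More of the summits in gene-dense bins were at promoters. Within 1 kb of a transcript start lay 1260 of 3258 summits, or 38.7% (37.0 to 40.4), against 20.9% (20.6 to 21.3) in other bins and 22.1% over all autosomes. The difference of 17.7 percentage points was 17.9 in replicate 1 and 17.8 in replicate 2. The rule chose bins by gene starts, and a higher promoter share follows from it, since promoter windows covered 23.2% of their sequence against 5.98% elsewhere. The higher share does not mean a stronger preference for promoters. Summits per Mb were 130 inside the windows and 62.3 outside them in gene-dense bins. In other bins they were 69.3 and 16.6, a larger contrast in proportion. Bins with 30 to 39 genes, which are among the other bins, had a promoter share of 34.9% (33.2 to 36.6). Exons outside promoters held 9.36% of summits in gene-dense bins and 5.34% in other bins. Introns held 27.2% in gene-dense bins and 40.5% in other bins, and intergenic sequence held 24.7% in gene-dense bins and 33.2% in other bins.

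The core motif was found at a smaller share of summits in gene-dense bins, and by location its share was lower there in introns and exons. A match was present at 2100 of 3258 summits, or 64.5% (62.8 to 66.1), against 71.2% (70.8 to 71.6) in other bins and 70.7% over all autosomes. The share was 57.9% in gene-dense and 64.3% in other bins in replicate 1, and 70.0% in gene-dense and 74.1% in other bins in replicate 2. At promoters it was 50.1% in gene-dense and 49.8% in other bins, and in intergenic sequence 79.4% and 79.0%. Within libraries the difference averaged 0.725 ± 0.305 percentage points at promoters and 1.09 ± 1.29 in intergenic sequence. In introns the share was 71.1% in gene-dense and 75.8% in other bins and in exons 64.9% in gene-dense and 71.0% in other bins, with within-library differences of -2.14 ± 1.11 and -4.65 ± 0.986 points. Both replicates were lower in gene-dense bins in these classes. The lower share was not particular to gene-dense bins. In bins with 30 to 39 genes, which are among the other bins, 2053 of 3159 summits had a match (interval 63.3% to 66.6%). Their share was 73.9% in introns, 67.1% in exons, 72.6% in intergenic sequence and 51.2% at promoters.

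Seen from the genome, motif matches were more frequent in gene-dense megabases and more often had a summit. Matches with no mismatch occurred at 6.56 per Mb in gene-dense bins and 2.57 per Mb in other bins. A summit lay within 50 bp of 251 of 274 such matches in gene-dense bins, or 91.6% (87.7 to 94.3), against 82.1% (81.1 to 83.1) of 6049 in other bins. The shares were 90.5% and 93.1% in the replicates in gene-dense bins, and 76.6% and 83.7% in other bins. With exactly 1 mismatch there were 47.0 matches per Mb in gene-dense bins and 22.5 in other bins. Of these, 43.3% (41.1 to 45.5) had a summit in gene-dense bins and 26.6% (26.3 to 27.0) in other bins. In the replicates it was 42.3% and 43.6% in gene-dense bins, against 24.1% and 27.6% in other bins. A match is a run of letters and not a measured site, and a match without a summit says nothing about occupancy below the threshold of the list.

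Peaks with a motif were stronger in gene-dense bins, and peaks without one were not. At summits with no mismatch the median signal was 301 in gene-dense bins and 194 in other bins, a ratio of 1.55, and the ratio was 1.55 in replicate 1 and 1.45 in replicate 2. With 1 mismatch the median was 153 in gene-dense and 102 in other bins, and with 2 mismatches it was 81.9 in gene-dense and 61.5 in other bins. The replicate ratios averaged 1.41 ± 0.0107 and 1.26 ± 0.0210 for these classes. Without a match the medians were 33.6 in gene-dense and 35.7 in other bins, with a replicate ratio of 0.996 ± 0.0337. Outside the promoter windows of 1 kb the ratios were 1.54, 1.32, 1.32 and 0.920 in the same order of classes. Over all summits the median signal was 77.1 in gene-dense bins and 67.8 in other bins. That ratio of 1.14 was 1.04 in replicate 1 and 1.16 in replicate 2, and its distance from 1 was near the spread between the libraries. The pattern was not particular to gene-dense bins. Bins with 30 to 39 genes, which are among the other bins, had medians of 291 with no mismatch, 155 with 1 and 73.6 with 2. Without a match their median was 39.4, and over all summits it was 82.5.

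**Figure D3:**
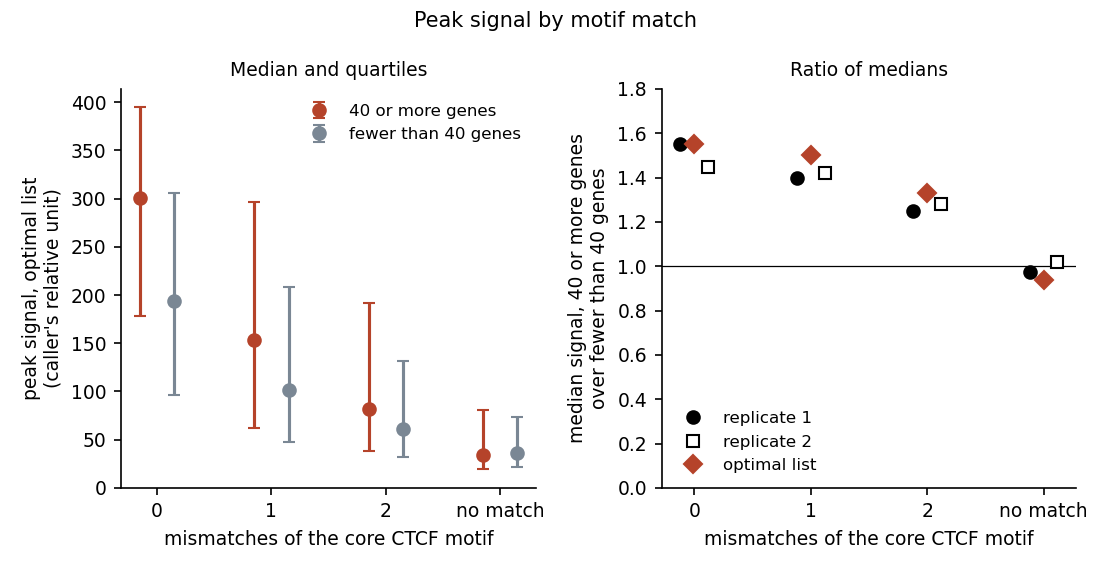
Left, median signal with quartiles (vertical axis, caller's relative unit, optimal list) by the number of motif mismatches (horizontal axis), for bins of 40 or more genes in red and fewer than 40 genes in grey; right, the ratio of the 2 medians in the optimal list and in each replicate. The ratio is 1.55 with no mismatch and 0.939 without a match in the optimal list.

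The strongest peaks of gene-dense megabases stood beside genes of several kinds. Signals are given from the optimal list, followed by the signal in each replicate as a multiple of the median of its 50909 strongest peaks. The strongest, of signal 669, lay 1974 bp upstream of Ndufa4l2, a hypoxia-induced relative of a respiratory subunit, at 11.2 and 8.82 times the replicate medians. The Cirbp peak, 796 bp upstream of the start, had a signal of 656 and multiples of 11.6 and 8.17. The peak 106 bp inside Pik3r2, which encodes a regulatory subunit of PI3 kinase, had 655 and multiples of 11.2 and 8.57. All 3 were within the 26 strongest peaks of both replicates.
The fourth, of signal 643, lay 134 bp upstream of the nearest start of Wrap53, a telomerase factor whose gene faces Trp53. The fifth, of signal 626, lay 133 bp inside Stat3, the transcription factor of cytokine signalling. The sixth had 617 and lay within 1 kb of the start of a noncoding transcript, 13443 bp from the nearest protein-coding start, that of the GTPase gene Gnl1. The other members of the 10 strongest lay at Gm20219 (616), in an intron of the kinase gene Lmtk3 (613), in an intron of Ethe1, a mitochondrial sulfur enzyme (611), and 1216 bp upstream of Dus3l, a tRNA-modifying enzyme (600). Of these 10 peaks, the one at Dus3l had no motif match in its window.

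The strongest peaks of the 5 gene-dense bins with fewest summits differed in height. In the histone bin the strongest, of signal 523, lay 780 bp upstream of Abt1, a basal transcription activator, with multiples of 8.87 and 6.71. In the protocadherin bin it had 483 and lay in an intron of Diaph1, an actin nucleator. In the keratin bin it had 408 and lay in Tns4, a focal adhesion gene. The other two were weaker. In the Lce and Sprr bin the strongest reached 226, with multiples of 4.17 and 2.64, and lay 6664 bp from the start of Lce3f. In the defensin bin it reached 204, with multiples of 2.06 and 3.89, and lay 3186 bp from the start of Fam90a1a.

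Genes in gene-dense bins had CTCF at their promoters somewhat more often. A summit lay within 1 kb of a transcript start for 946 of 2054 genes, or 46.1% (43.9 to 48.2), against 38.2% (37.5 to 39.0) of 17296 genes in other bins and 39.1% of all 19350. The share was 51.2% in gene-dense and 42.8% in other bins in replicate 1, and 41.7% in gene-dense and 34.4% in other bins in replicate 2. The difference averaged 7.82 ± 0.711 percentage points, larger than its spread. For genes in bins with 30 to 39 genes, which are among the other bins, the share was 44.5% (42.2 to 46.8). Of summits within 1 kb of coding starts, 152 of 1156 or 13.1% (11.3 to 15.2) were that close to 2 or more genes, against 9.21% (8.60 to 9.85) in other bins, which the choice of bins by gene starts favours. Summits inside gene bodies were found for 54.4% of genes in gene-dense bins and 57.6% in other bins, and the median gene length was 7.62 kb in gene-dense bins and 22.2 kb in other bins.

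Gene lists were taken by symbol, and their counts stand beside the 46.1% of all genes in gene-dense bins. Among 4 lists of basic cell functions, the ribosomal protein genes had the highest share in the optimal list only. In each replicate and in the conservative list the share was higher for respiratory chain and ATP synthase genes. Ribosomal protein genes had a promoter summit for 13 of 17, with 12 in replicate 1 and 11 in replicate 2. Mitochondrial ribosomal protein genes had one for 7 of 11, with 8 and 5 in the replicates. For respiratory chain and ATP synthase genes it was 9 of 15, with 13 and 11 in the replicates, and for proteasome genes 5 of 10, with 6 and 4. The interval was 52.7% to 90.4% for ribosomal proteins. For the other 3 lists it took in the 46.1% of all genes, at 35.4% to 84.8%, 35.7% to 80.2% and 23.7% to 76.3%. Outside gene-dense bins the 4 lists had 55.1%, 52.2%, 57.6% and 43.6%.

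Rpl36, of the large ribosomal subunit, led the ribosomal proteins with a signal of 515, and Rpl27, of the same subunit, had 362. Among mitochondrial ribosomal proteins, Mrps12 had 471, Mrpl11 had 367 and Mrps18b had 203. Ndufb10 of complex I had 542 and Uqcrc1 of complex III had 470, and Ndufaf3, an assembly factor that the symbol rule takes in, had 485. The regulatory particle ATPase gene Psmc4 had 320 and the activator gene Psme1 had 32.7, while Psmc3ip, with 335, is a recombination factor that shares the prefix. Psmb10, Psmb6, Psmb8, Psmd4 and Psme2 had no promoter summit. The weakest of those named, at Psme1, stood at 0.784 and 0.178 times the replicate medians.

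**Figure D4:**
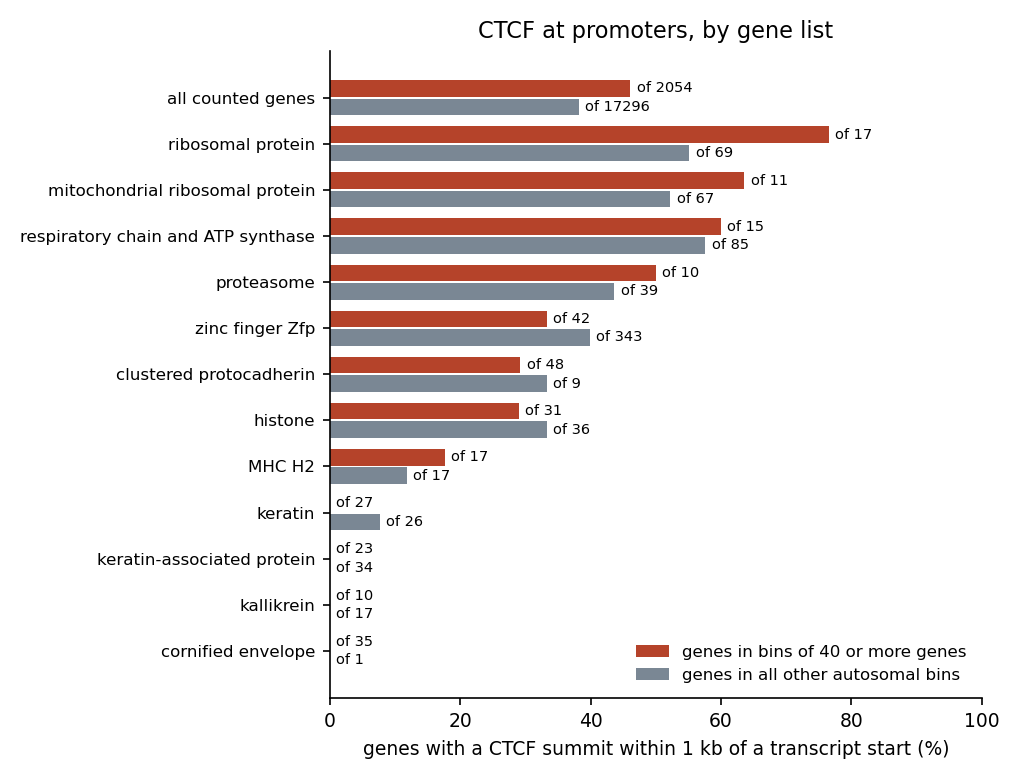
Percent of genes with a CTCF summit within 1 kb of a transcript start (horizontal axis) for all counted genes and for the lists with at least 10 genes in gene-dense bins, in red for genes in bins of 40 or more genes and in grey for genes in the other autosomal bins; the number of genes stands beside each bar. Ribosomal protein genes reach 76.5% in gene-dense bins, and keratin, keratin-associated, kallikrein and cornified envelope genes are at 0 there.

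Genes of skin and gland families had no promoter summit in gene-dense bins. None was found for 27 keratin genes, 23 keratin-associated genes, 35 cornified envelope genes or 10 kallikrein genes, which encode secreted serine proteases. Replicate 1 had none for any of them, and replicate 2 had 1, for a keratin. The upper ends of the intervals were 12.5%, 14.3%, 9.89% and 27.8%. Outside gene-dense bins these families were also nearly empty, with 2 of 26 keratin genes and none of 34 keratin-associated or 17 kallikrein genes. Most members of a family share 1 bin, so they are not separate observations. The keratin genes lie in 2 bins, and each of the other families lies in 1.

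The other gene families lay between in the optimal list. Clustered protocadherins had a promoter summit for 14 of 48 genes, with 12 in replicate 1 and 18 in replicate 2. Their strongest were Pcdhgb7 with 186, Pcdhga12 with 145 and Pcdhgb6 with 132, all without a match of the motif in the window. Only 1 of the 14 had a match. Histone genes had one for 9 of 31, with 13 and 5 in the replicates, led by Hist1h4c with 224, Hist1h4f with 66.5 and Hist1h3e with 52.0. Zfp genes, which encode zinc finger proteins, had one for 14 of 42, with 19 and 11 in the replicates. Zfp598 with 287, Zfp747 with 249 and Zfp764 with 207 were the strongest. Of the MHC genes named H2, 3 of 17 had one in the optimal list and in each replicate. H2-DMa, a class II peptide-loading factor, had 565, H2-Ke6 had 81.1 and H2-Ab1, a class II beta chain, had 33.6. Outside gene-dense bins a promoter summit was found for 3 of 9 protocadherin genes (33.3%) and 12 of 36 histone genes (33.3%). For Zfp genes it was 137 of 343 there (39.9%) and for H2 genes 2 of 17 (11.8%).

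Of the liver's own cells, 3 of 47 red cell genes (6.38%) and 5 of 40 hepatocyte genes (12.5%) start in gene-dense bins, against 10.6% of all counted genes. All 3 red cell genes had a promoter summit in the optimal list and both replicates, with an interval of 43.9% to 100%. Outside gene-dense bins 30 of 44 red cell genes (68.2%) had one too. Icam4, an erythroid adhesion molecule, had 458, with multiples of 8.31 and 5.63. Epor, the erythropoietin receptor, had 84.0, with multiples of 1.59 and 0.986. Hepatocyte genes had one for 2 of 5 in gene-dense bins and for 8 of 35 (22.9%) in other bins. Apoe had 71.8 and Foxa3, a liver transcription factor, had 65.5, and Apoc1, Apoc2 and Cfb had none. Of 2 cytochrome P450 genes, the steroid hydroxylase Cyp21a1 had 125 and Cyp27b1 had none. The only chemokine gene, Cxcl16, had none, and no serpin gene starts in a gene-dense bin.

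Of 22 genes for cohesin and for proteins that work with CTCF, 4 (18.2%) start in gene-dense bins, against 10.6% of all counted genes. Maz, a zinc finger factor reported to bind beside CTCF, had a promoter summit of signal 344, with multiples of 6.61 and 3.74. Cdca5, which encodes the cohesin-stabilising protein sororin, had 23.7, with 0.260 and 0.337. Neither had a motif match. Ctcf itself and Mau2, a part of the cohesin loader, had no summit within 1 kb of a transcript start in the optimal list.

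Motif orientation was compared over neighbouring motif summits 20 kb to 1 Mb apart. In gene-dense bins 30.6% (27.2 to 34.2) of 660 pairs were convergent, with motifs pointing at each other, against 27.5% (26.9 to 28.2) of 17782 pairs in other bins. Replicate 1 gave 28.8% in gene-dense and 27.4% in other bins, and replicate 2 gave 30% in gene-dense and 27.5% in other bins. The mean difference of 1.96 ± 0.853 percentage points exceeded its spread, but the counting intervals of the shares overlap, so it was not resolved at this number of pairs. With 50 or more genes as the limit the difference was -0.600 points, which is the other direction. Divergent pairs made up 23.3% in gene-dense and 22.6% in other bins. Pairs in gene-dense bins were closer, with a median distance of 33.3 kb against 55.0 kb. In bins with 30 to 39 genes, which are among the other bins, 30.9% (27.6 to 34.3) of 716 pairs were convergent.

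In the optimal list the convergent share was higher at larger distances in both sets. From 20 to 50 kb the convergent share was 29.0% (25.3 to 33.0) of 528 pairs in gene-dense bins and 24.0% (23.1 to 25) of 8076 in other bins. From 50 to 100 kb it was 37.3% (28.8 to 46.6) of 110 in gene-dense bins and 28.3% (27.1 to 29.6) of 5006 in other bins. In that range the replicates gave 35.2% and 35.7% in gene-dense bins, against 28.4% and 28.2% in other bins. From 100 to 200 kb only 16 pairs remained in gene-dense bins, of which 8 were convergent, and the replicates were at 26.3% and 41.7%.

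**Figure D5:**
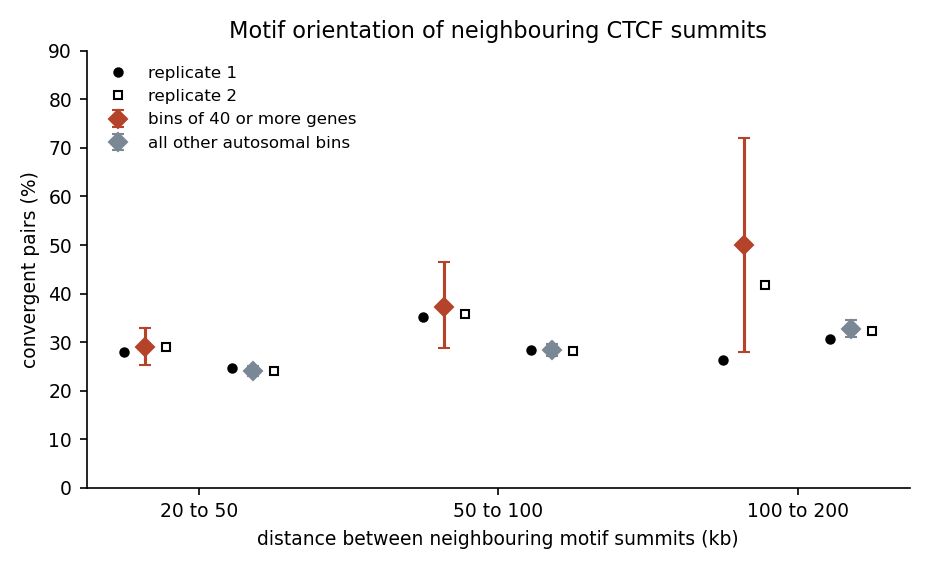
Percent of neighbouring motif summits that are convergent (vertical axis) by their distance in kb (horizontal axis), in red for bins of 40 or more genes and in grey for the other autosomal bins, with Wilson 95% intervals on the optimal list and points for each replicate. From 20 to 50 kb the shares are 29.0% in gene-dense and 24.0% in other bins.

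The 5 strongest convergent pairs up to 200 kb apart, ordered by the weaker of their peaks, enclosed short stretches with 1 to 3 gene starts. The first pair, 20.1 kb apart, enclosed H2-D1, a class I gene that presents peptides. Its left peak had a signal of 375, with multiples of 6.29 and 5.04, and its right peak 380, with multiples of 6.73 and 4.81. H2-D1 itself had no promoter summit. The second pair, 55.9 kb apart, enclosed the translation factor gene Abcf1 and Gnl1 and Prr3, with signals of 348 on the left and 617 on the right, which is the Gnl1 peak of the sequences above.
The third, 30 kb apart, enclosed the starts of Prr12, Nosip and Prrg2, with 366 and 332, and all 3 genes had a promoter summit. The fourth, 39.2 kb apart, enclosed Gm17387 and the interferon-induced genes Ifitm3 and Ifitm6, with 328 and 395. There was no summit between its ends and none at those promoters. The fifth, 25.1 kb apart, enclosed the gene start of Sema6b, a semaphorin gene, with 403 and 325. Its left peak lay in an intron of Sema6b. Orientation was read from sequence, and contacts between these sites were not analysed here.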

How the data were processed

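The 2 libraries, both CTCF ChIP on E14.5 liver, form 1 group. Per the deposited descriptions, the authors called peaks against a control on mm10 and wrote narrowPeak lists. The caller and read numbers are not given in the sources used here. Peak signal was used as deposited, and other columns except the summit offset were not used. Each replicate's list holds 300000 peaks, the optimal list 50909 and the conservative list 49129. From these, summits were assigned to bins of 1 Mb, classed with GENCODE vM21 as promoter (within 1 kb of any transcript start), exon, intron or intergenic, and searched for the core CTCF motif with at most 2 mismatches. Scripts used Python 3.11.15, numpy 2.4.6 and pandas 2.3.3 and were tested on simulated data. Genes, bins and pairs named were those with the most genes, the most or fewest summits, or the strongest signal; a few that this rule names are not reported here. The members and the gene lists were chosen with earlier results of these data known. No test was run, since 1 group allows none. The pooled list and signal tracks were not analysed here.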

Additional observations from a re-analysis of the deposited data

How the results depend on the processing

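Each of 6 comparisons was repeated under 10 or 11 of 17 settings, of which 2 (summits outside promoters, and bins of at least 45% GC) were chosen after seeing the data. Motif-class signals, motif occupancy, gene lists and distance classes were not repeated. Of 62 compared values, 34 moved by less than 1 SD of the replicates and 1 changed direction; the cause was not tested for the others. The convergent share difference was -0.600 points with 50 or more genes, 1.62 with the conservative list, 0.875 with peaks above the median signal, 1.07 with at most 1 mismatch and 1.75 with neighbours from 5 kb. The density ratio was 5.71 as a median over bins and 1.78 in bins of at least 45% GC. The signal ratio was 1.23 with peaks above the median signal. The motif share difference was -3.95 with those peaks, -3.69 with at most 3 mismatches and -3.29 outside promoters. The promoter share difference was 17.0 with the conservative list, 16.9 with peaks above the median signal and with 30 or more genes, 18.1 with 50 or more genes, 17.4 by the 5′ end of the gene, 19.4 with bins moved by 500 kb, 13.5 with windows of 500 bp and 30.4 with windows of 5 kb. The difference in genes with a promoter summit was 7 with peaks above the median signal, 8.55 by the 5′ end, 6.32 with windows of 500 bp and 11.9 with windows of 5 kb. Leaving out 1 replicate meant using the other's strongest peaks alone. These values are the same 2 that set the SD, so they are no separate check. The density ratio ran from 3.69 to 4.33, the signal ratio from 1.04 to 1.16 and the promoter share difference from 17.8 to 17.9. The motif share difference ran from -6.39 to -4.14. The difference in genes with a promoter summit ran from 7.31 to 8.32 and the convergent share difference from 1.36 to 2.57. No paired analysis was possible because both libraries belong to 1 group. Read depth is unknown, so its effect could not be measured.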
